A study of Drosophila melanogaster with 12 samples.

Results

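The antibody background of the study was measured in larval brains without *Mettl3*, whose protein methylates adenosines of mRNA to N6-methyladenosine (m6A). The libraries described here were chosen by genotype and library kind alone: 2 libraries of RNA recovered with an antibody against m6A (meRIP) and 2 input libraries from *Mettl3* null brains, 4 of the 12 libraries of the series. All were made from dissected brain lobes of *Drosophila melanogaster* larvae at the L3 stage, reared at the same temperature with no other treatment. The comparison genotypes were wildtype (Oregon-R) brains, in which neurons predominate, and neuroblast-biased brains, in which *insc-Gal4* drove UAS-aPKC-CAAX, a membrane-targeted atypical protein kinase C, in neuroblasts. The *Mettl3* null flies are labelled with neither transgene, and their allele was not named in the sources used here. Each of these other genotypes also had 2 meRIP and 2 input libraries. Since whole brain lobes were sampled, fewer cells of a type and less RNA per cell cannot be told apart.

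In meRIP, RNA is incubated with an antibody raised against methylated adenosine, and what remains bound after washing is sequenced beside RNA that was not selected. *Mettl3* works in a complex with *Mettl14* and several adaptor proteins, and without it mRNA loses nearly all of its m6A. RNA that is still recovered from null brains is therefore the reference against which methylated RNA is judged. Other enzymes methylate adenosines of ribosomal RNA and U6 snRNA in animals, and these sites do not need *Mettl3*.

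Totals in null brains were 10745957 and 10828815 counts in the 2 input libraries and 16745268 and 7870449 in the 2 meRIP libraries, so that the second meRIP library was the shallowest of the 4. The meRIP libraries nevertheless detected more genes (11747 and 11148) than the input libraries (9240 and 8739). Genes with only 1 to 10 counts made up much of this excess, with 2591 and 2833 in meRIP against 346 and 376 in input. For the genes whose mean over the null libraries reached 20 CPM (counts scaled to library size and TMM factors), here termed well counted, the log2 difference between replicates had an SD of 0.50 in input and 0.38 in meRIP. Over all 9918 genes tested the SD was 1.65 in input and 0.633 in meRIP, so poorly counted genes were reproduced far less well in input. The 6 neuron markers took 0.514% to 0.705% of the counts of a library, the 5 glial markers 0.120% to 0.188% and the 6 salivary gland markers at most 0.00393%. Fat body markers were uneven between replicates. These 6 genes took 0.0107% and 0.00247% of the input libraries and 0.00974% and 0.00159% of the meRIP libraries. In meRIP 3 of the 6 neuron markers and 3 of the 5 glial markers were higher than in input at an adjusted p under 0.05 (limma-voom). Of all genes tested, 4.14% were. *Mettl3* itself kept 121 and 30 counts in null input and 67 and 34 in null meRIP, and gene counts do not show whether these reads lie inside the deleted sequence.

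Without *Mettl3*, the antibody fraction was poor in short structured non-coding RNAs and in transcripts of the mitochondrial genome. It was richer in adenine-rich mRNAs and in a few abundant long non-coding RNAs. Neither pattern was confined to null brains. Among the 9918 genes that entered the test, null meRIP exceeded null input for 411 (4.14%) and fell short of it for 144 (1.45%) at an adjusted p under 0.05 (limma-voom), and 2311 had an unadjusted p under 0.05. Genes with an adjusted p under 0.05 are described as called. The higher genes were almost all protein-coding (400), with 10 non-coding RNAs and 1 RNA annotated as snoRNA. The lower genes held 117 protein-coding genes, 12 snoRNAs, 4 snRNAs, 3 rRNAs and 5 pseudogenes. Leaving out any 1 of the 4 null libraries lowered both counts. Without input replicate 2 there were 26 higher and 37 lower genes, without input replicate 1 there were 104 and 119, without meRIP replicate 1 there were 69 and 25, and without meRIP replicate 2 there were 159 and 52. Scaling by library size alone shifted the median log2 fold change (log2FC) of all genes by -0.29 and gave 157 higher and 326 lower genes, so that the split between directions depended on the scaling. Log2FC values below are relative to the TMM scaling, under which the median of all genes was 0.16.

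**Figure D1:**
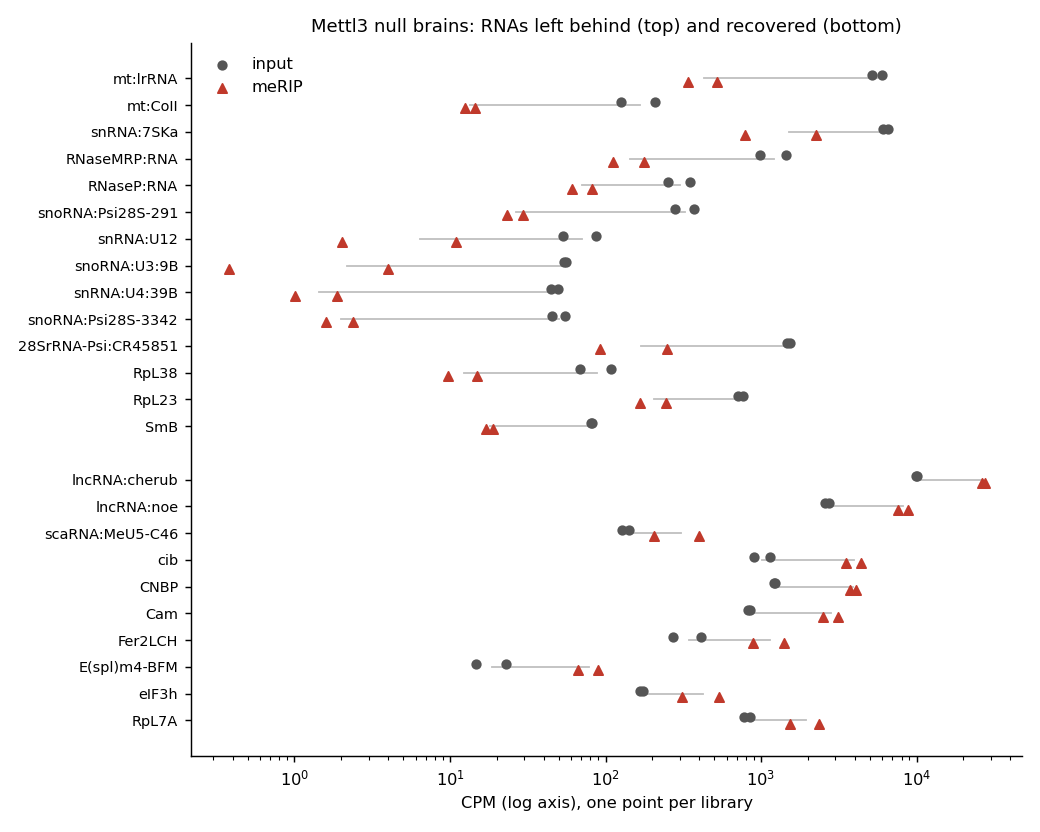
Levels of 24 RNAs in the 4 *Mettl3* null libraries, in CPM on a log axis, with grey circles for input and red triangles for meRIP and a line joining the 2 means. In the upper 14 RNAs both meRIP libraries lie below both input libraries, as for mt:lrRNA at 341 and 520 against 6031 and 5133 CPM, and in the lower 10 RNAs both lie above.

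Sequences are shown for 5 RNAs left behind, read from the RefSeq genome of *D. melanogaster* (Release 6, the coordinates of BDGP6) and printed 5′ to 3′ in DNA letters. They stand for the pseudouridylation guides, the pre-rRNA processing RNAs and the spliceosomal RNAs that were called lower, all short RNAs with fixed protein partners. *snoRNA:Psi28S-3342* lies at chrX:5524302-5524465 on the minus strand and *snoRNA:Psi28S-291* at chr3R:11223571-11223790 on the plus strand. Both belong to the H/ACA class, and capitals mark the ACA box 3 bases from the 3′ end. *snoRNA:U3:9B*, which is needed for cleavage of pre-rRNA, lies at chrX:10348125-10348337 on the plus strand, and capitals mark the CTGA of its D box. *snRNA:U4:39B*, which pairs with U6 before splicing, lies at chr2L:21215036-21215178 on the minus strand, and *snRNA:U12*, the branch point RNA of the minor spliceosome, at chr3L:16653769-16654006 on the plus strand, with the Sm site (ATTTTTG, bound by the ring of Sm proteins) in capitals.
snoRNA:Psi28S-3342: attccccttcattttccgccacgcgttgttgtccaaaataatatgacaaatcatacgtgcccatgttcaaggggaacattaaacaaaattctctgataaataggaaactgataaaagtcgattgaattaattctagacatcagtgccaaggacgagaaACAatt
snoRNA:Psi28S-291: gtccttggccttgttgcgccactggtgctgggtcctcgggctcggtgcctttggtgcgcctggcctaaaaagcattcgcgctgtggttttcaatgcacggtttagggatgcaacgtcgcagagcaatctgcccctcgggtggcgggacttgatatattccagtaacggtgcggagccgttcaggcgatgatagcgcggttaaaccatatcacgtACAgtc
snoRNA:U3:9B: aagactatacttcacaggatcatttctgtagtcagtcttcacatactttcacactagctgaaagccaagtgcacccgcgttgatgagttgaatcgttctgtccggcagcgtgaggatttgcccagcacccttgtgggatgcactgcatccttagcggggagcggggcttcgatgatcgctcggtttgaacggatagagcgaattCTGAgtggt
snRNA:U4:39B: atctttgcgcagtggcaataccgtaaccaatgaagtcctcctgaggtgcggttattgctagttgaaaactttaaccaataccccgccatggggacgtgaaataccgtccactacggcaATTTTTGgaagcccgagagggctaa
snRNA:U12: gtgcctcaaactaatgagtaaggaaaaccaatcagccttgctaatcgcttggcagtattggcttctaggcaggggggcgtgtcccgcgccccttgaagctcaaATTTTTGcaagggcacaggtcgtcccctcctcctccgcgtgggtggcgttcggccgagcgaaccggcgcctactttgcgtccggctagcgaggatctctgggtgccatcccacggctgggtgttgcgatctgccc
Their adenine content spanned 16.8% in U12 to 36.6% in Psi28S-3342, so that both adenine-poor and adenine-rich RNAs were among those left behind.

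For contrast, windows of 200 bases with the most adenine are shown from 4 longer non-coding RNAs, 2 recovered and 2 left behind, with runs of 3 or more adenines in capitals. *lncRNA:noe* (chr3L:17400911-17401110, minus strand) and *lncRNA:cherub* (chr3R:11252471-11252670, minus strand) were recovered. *snRNA:7SKa* (chr3R:7474567-7474766, minus strand) and *mt:lrRNA*, the large mitochondrial rRNA (bases 13419 to 13618 of the mitochondrial genome, minus strand), were left behind.
lncRNA:noe: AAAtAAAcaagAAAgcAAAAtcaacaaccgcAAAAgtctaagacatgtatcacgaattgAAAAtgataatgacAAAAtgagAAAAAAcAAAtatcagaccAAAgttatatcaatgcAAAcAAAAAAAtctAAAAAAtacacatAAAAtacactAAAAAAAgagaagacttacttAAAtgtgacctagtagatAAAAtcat
lncRNA:cherub: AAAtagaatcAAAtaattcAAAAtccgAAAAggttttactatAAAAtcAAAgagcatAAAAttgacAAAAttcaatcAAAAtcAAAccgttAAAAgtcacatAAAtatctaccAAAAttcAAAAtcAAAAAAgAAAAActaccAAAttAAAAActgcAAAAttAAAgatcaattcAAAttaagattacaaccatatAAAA
snRNA:7SKa: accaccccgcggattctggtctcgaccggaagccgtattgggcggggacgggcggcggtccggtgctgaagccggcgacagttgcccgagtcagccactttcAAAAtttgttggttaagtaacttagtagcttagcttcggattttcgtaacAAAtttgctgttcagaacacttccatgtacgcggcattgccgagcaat
mt:lrRNA: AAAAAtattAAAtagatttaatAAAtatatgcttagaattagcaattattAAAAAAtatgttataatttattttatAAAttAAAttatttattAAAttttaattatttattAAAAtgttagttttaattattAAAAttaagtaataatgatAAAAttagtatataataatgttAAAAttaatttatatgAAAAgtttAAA
The windows of *noe* and *cherub* held 56.0% adenine each, with 17 and 22 such runs. The window of mt:lrRNA was nearly as rich, with 48.5% adenine and 13 runs, and that of 7SKa held 21.0% adenine and 2 runs.

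Small nucleolar RNAs guide the modification of rRNA, the H/ACA class by pseudouridylation and the C/D class by 2′-O-methylation. The table listed 257 snoRNA genes, of which 187 had counts in null brains and 131 were tested. None was higher and 12 were lower in null meRIP, against 4.14% and 1.45% of all genes. The median log2FC over the 131 was -1.41, with 93 below 0. Its difference to the median of all genes was -1.57, but with no filter on low counts that over 216 snoRNAs was -0.027. The family took 0.156% and 0.176% of the input counts but 0.0357% and 0.0195% of the meRIP counts. *Psi28S-291* had 278 and 372 CPM in input and 29.6 and 23.4 CPM in meRIP (log2FC -3.56, SE 0.33, adjusted p 2.44e-05). Both meRIP libraries lay far below both inputs, and the call held in all 16 alternatives fitted for this gene. *Psi28S-3342* had 45.3 and 54.5 CPM in input and 1.59 and 2.39 in meRIP (log2FC -4.70, SE 0.89, adjusted p 0.00761). *U3:9B* had 53.7 and 55.3 CPM in input and 4.0 and 0.378 in meRIP, where the second value rests on 3 counts (log2FC -5.09, SE 1.0, adjusted p 0.00973). The lowest log2FC of any called gene was that of *Psi28S-1175c*, with 71.5 and 72.9 CPM in input and 1.35 and 0.503 in meRIP (log2FC -6.26, SE 1.46, adjusted p 0.0221), and its call was lost in 4 of 16 alternatives.

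Grouped by name after the values were seen, 82 H/ACA guides (named for the pseudouridine they make) had a median log2FC of -1.93 with 66 below 0 and 10 called lower, whereas 17 C/D guides named for a methylated base had a median of 0.53 with 5 below 0 and none called. None of these 17 was well counted, and they took at most 0.00329% of the counts of any null library, so that a difference between the classes was not detectable at this depth. The small Cajal body RNA *scaRNA:MeU5-C46*, a guide for U5 snRNA, was the only annotated snoRNA called higher, with 127 and 142 CPM in input and 401 and 206 in meRIP (log2FC 1.15, SE 0.25, adjusted p 0.0164). Both of its meRIP libraries exceeded both inputs, but the call was lost in 5 of 16 alternatives.

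Among the spliceosomal snRNAs, 24 genes were tested, 21 had a log2FC below 0 and the median was -1.80. Those called lower were U4:39B, U12 and U11, and none was called higher, against 1.45% lower and 4.14% higher over all genes. *snRNA:U4:39B* went from 44.8 and 49.2 CPM in input to 1.88 and 1.01 in meRIP (log2FC -4.97, SE 0.89, adjusted p 0.00545). *snRNA:U12* went from 86.7 and 53.5 to 10.9 and 2.01 CPM (log2FC -3.40, SE 0.68, adjusted p 0.0111), and *snRNA:U11*, the 5′ splice site RNA of the minor spliceosome, from 57.5 and 114.7 to 13.5 and 7.42 CPM (log2FC -2.82, SE 0.59, adjusted p 0.0134). The groups did not overlap for any of the 3, but with the null libraries fitted alone none of them was called, and of 16 alternatives U11 lost its call in 4, U4:39B in 3 and U12 in 2. *snRNA:U2:34ABa*, the best counted U2 gene, had 148 and 165 CPM in input and 93.2 and 64.2 in meRIP and was not called (log2FC -0.96, SE 0.32, adjusted p 0.0895). For *snRNA:U1:95Cc* the inputs themselves disagreed, at 13.5 and 111 CPM. U6, which carries m6A from another enzyme, could not be assessed: *snRNA:U6:96Ac* had 0 and 14 counts in input and 2 and 0 in meRIP, and the other 2 U6 genes had fewer.

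The RNA subunits of nuclear ribonucleoproteins outside the spliceosome were also left behind. *RNaseMRP:RNA*, which takes part in pre-rRNA processing, had 987 and 1445 CPM in input and 111 and 176 in meRIP (log2FC -3.14, SE 0.28, adjusted p 2.44e-05). *RNaseP:RNA*, which trims tRNA precursors, had 252 and 351 CPM in input and 81.2 and 60.5 in meRIP (log2FC -2.04, SE 0.27, adjusted p 0.000731). *snRNA:7SKa*, which holds the elongation factor P-TEFb inactive, had 6518 and 6053 CPM in input and 2248 and 787 in meRIP (log2FC -2.17, SE 0.30, adjusted p 0.000939). All 3 were lower in both meRIP libraries and kept their call in every alternative fitted. The signal recognition particle RNA, another abundant structured RNA, did not follow them. *7SLRNA:CR32864* had 54.0 and 134 CPM in input and 107 and 63.8 in meRIP (log2FC 0.03, SE 0.57, adjusted p 0.977), and *7SLRNA:CR42652* had a log2FC of -0.34 (SE 0.58, adjusted p 0.763). The 2 genes are copies of each other, so that reads can have been split between them, and their inputs differed by more than the groups.

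Cytoplasmic rRNA was depleted with *Drosophila*-specific primers during library preparation, which limits what the remaining rRNA counts show. All 13 rRNA genes and rRNA pseudogenes tested had a log2FC below 0, with a median of -2.68. Of these 6 were called lower, against 1.45% of all genes. *28SrRNA-Psi:CR45851* had 1531 and 1469 CPM in input and 248 and 92.2 in meRIP (log2FC -3.20, SE 0.47, adjusted p 0.00135). This input level was particular to null brains, with 53.2 and 48.6 CPM in wildtype input and 143 and 161 in neuroblast-biased input. *28SrRNA-Psi:CR40741* had the log2FC closest to 0 (-0.17, SE 0.56, adjusted p 0.887). Many of these sequences are near-identical, and reads cannot be assigned to 1 copy with confidence. The family took 0.463% and 0.460% of input counts and 0.0861% and 0.0363% of meRIP counts. Whether depletion acted equally on both library kinds was not tested.

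**Figure D2:**
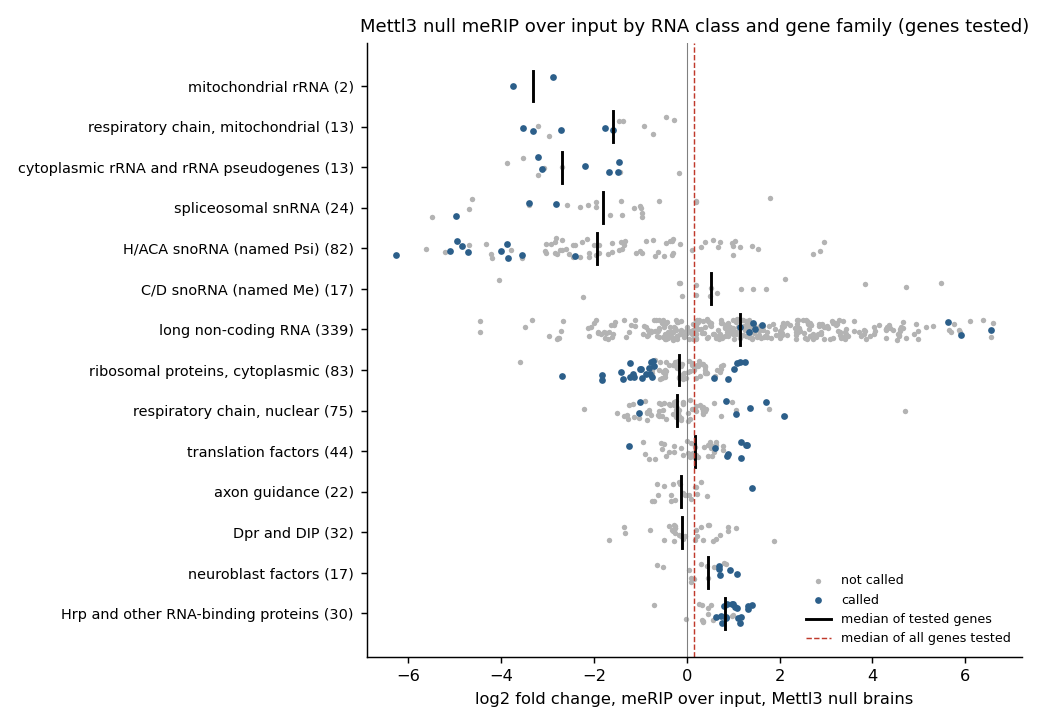
Log2FC of meRIP over input in *Mettl3* null brains for the tested genes of 14 RNA classes and gene families, with the number tested in parentheses. Each point is a gene, blue where called and grey where not, black bars are medians, and the dashed line is the median of all genes, 0.16. Classes of short non-coding and mitochondrial RNA lie to the left, with medians of -3.32 for mitochondrial rRNA and -1.80 for spliceosomal snRNA, and RNA-binding proteins to the right, with a median of 0.82 in a list chosen after values were seen.

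The mitochondrial genome encodes subunits of the respiratory chain and 2 rRNAs, all transcribed inside the organelle, whereas the writer complex acts in the nucleus. Its RNAs were lower in null meRIP as a group. Mitochondrial rRNA took 0.838% and 0.703% of the input counts and 0.0394% and 0.0742% of the meRIP counts. *mt:lrRNA* had 6031 and 5133 CPM in input and 341 and 520 in meRIP (log2FC -3.75, SE 0.28, adjusted p 7.37e-06), the smallest adjusted p among the lower genes named here. *mt:srRNA*, the small rRNA, had 705 and 592 CPM in input and 47.1 and 215 in meRIP (log2FC -2.89, SE 0.40, adjusted p 0.000939). Both were lower in both meRIP libraries, and the median adenine content of the 2 was 40.8%.

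All 13 mitochondrial respiratory chain genes had a log2FC below 0, with a median of -1.58. Of these 5 were called lower, against 1.45% of all genes. The most lowered was *mt:CoII*, a subunit of cytochrome c oxidase, at 209 and 125 CPM in input and 14.5 and 12.5 in meRIP (log2FC -3.54, SE 0.40, adjusted p 0.000228). The least lowered was *mt:CoIII*, a subunit of the same enzyme, at 1406 and 972 CPM in input and 1009 and 915 in meRIP (log2FC -0.28, SE 0.20, adjusted p 0.442). For mt:CoIII the meRIP and input libraries overlapped, whereas for mt:CoII they were far apart. *mt:ND5*, of complex I, had 97.0 and 97.2 CPM in input and 10.9 and 28.2 in meRIP (log2FC -2.72, SE 0.35, adjusted p 0.000693). The remaining called genes were *mt:ND4* (log2FC -3.32), *mt:Cyt-b* (-1.76) and *mt:CoI* (-1.58). Others were counted too unevenly to assess: *mt:ND3* had 71 and 0 counts in the 2 inputs and *mt:ND6* 0 and 34.

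Of 75 nuclear genes of the same respiratory complexes, 5 were called higher and 2 lower, against 4.14% and 1.45% of all genes, and the median was -0.21. *ND-ASHI*, a complex I subunit, had 25.5 and 33.1 CPM in input and 157 and 87.5 in meRIP (log2FC 2.08, SE 0.39, adjusted p 0.00672). *ATPsynbeta*, the catalytic subunit of ATP synthase, had 526 and 411 CPM in input and 239 and 219 in meRIP (log2FC -1.01, SE 0.22, adjusted p 0.0164). Of the mitochondrial ribosomal proteins, which are also nuclear genes, 2 of 73 were higher and none lower (median 0.05).

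**Figure D3:**
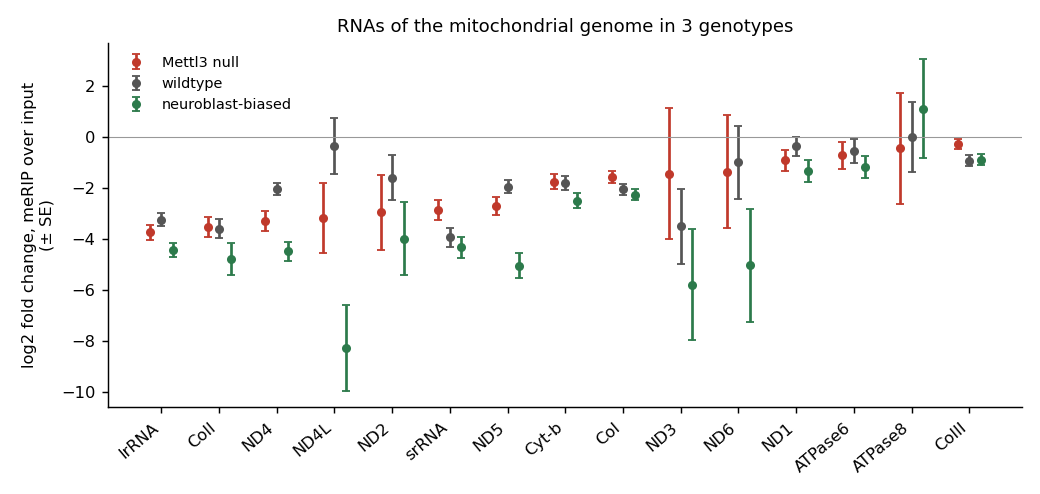
Log2FC of meRIP over input (points, bars of 1 SE) for the 13 respiratory chain genes and 2 rRNAs of the mitochondrial genome, in *Mettl3* null (red), wildtype (grey) and neuroblast-biased (green) brains, ordered by the null value. In null brains all 15 points lie below 0, from -3.75 for lrRNA to -0.28 for CoIII.

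Cytoplasmic ribosomal protein mRNAs are short, abundant and translated together. They split in the null fraction. Of 83 tested, 6 were called higher and 19 lower, against 4.14% and 1.45% of all genes, and the median log2FC was -0.17. *RpL38* had 109 and 68.2 CPM in input and 15 and 9.69 in meRIP (log2FC -2.70, SE 0.42, adjusted p 0.00207). *RpL23* had 761 and 711 CPM in input and 244 and 166 in meRIP (log2FC -1.84, SE 0.20, adjusted p 0.000142). At the other end, *RpL7A* had 855 and 776 CPM in input and 2368 and 1546 in meRIP (log2FC 1.26, SE 0.20, adjusted p 0.00284), and *RpL28* had 627 and 753 CPM in input and 1969 and 1103 in meRIP (log2FC 1.14, SE 0.22, adjusted p 0.00898). None of these 4 groups overlapped. RpL38, RpL23 and RpL28 were chosen for display after their values were seen. The other called genes were lower for *RpS14a*, *RpL15*, *RpL41*, *RpS16* and 13 more, and higher for *RpL3*, *RpS24*, *RpL30* and *RpS30*.

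The ribosomal proteins depended on the library. The median of the 83 was 0.13 with meRIP replicate 1 and -0.57 with meRIP replicate 2, each over the mean of the inputs, and they took 5.57% and 3.48% of the counts of these libraries against 5.57% and 5.48% of the inputs. The order of the genes was nearly the same in other genotypes: the log2FC of the 83 in null brains had a Spearman correlation of 0.82 with wildtype and 0.85 with neuroblast-biased brains, which share no library with the null comparison. Among the 80 well-counted members the null log2FC was higher for genes with more counts (rho 0.55) and more cytosine (0.35). Adenine content (-0.15) and length (0.13) went with it weakly. These correlations are across genes, which are not independent replicates.

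Other mRNAs of the translation and protein quality machinery were also examined. Of 44 translation factors, 7 were higher and 1 was lower, against 4.14% and 1.45% of all genes. *eIF3h*, a subunit of the initiation factor eIF3, had 174 and 166 CPM in input and 536 and 309 in meRIP (log2FC 1.30, SE 0.22, adjusted p 0.00351). *eEF5*, the fly eIF5A, was the lower one, with 393 and 397 CPM in input and 178 and 152 in meRIP (log2FC -1.25, SE 0.17, adjusted p 0.000731). Of 31 proteasome genes 2 were higher and 1, *Prosalpha5*, was lower (log2FC -1.55), and none of 19 vacuolar ATPase genes was called. Of 19 heat shock proteins 3 were higher and 2 lower, the latter the small heat shock proteins *Hsp23*, at 948 and 973 CPM in input and 578 and 395 in meRIP (log2FC -0.98, SE 0.19, adjusted p 0.00881), and *Hsp26* (-0.72). Their relative *Hsp27* was higher (1.26). In the list of Sm and LSm proteins, of which the Sm proteins bind the Sm site shown above, *SmB* had 80.5 and 82.1 CPM in input and 16.9 and 19.0 in meRIP (log2FC -2.21, SE 0.36, adjusted p 0.00266). *SmD3*, which shares 37.5% of its exon bases with another gene, was higher (log2FC 1.14, SE 0.25, adjusted p 0.0183). In the alternatives, *eIF3h*, *Prosalpha5* and *Hsp23* lost their call 3 times each and *SmD3* 4 times.

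Among long non-coding RNAs, 339 of 1911 listed genes were tested, with 8 higher and none lower, against 4.14% and 1.45% of all genes. *lncRNA:cherub*, which is segregated during neuroblast divisions, had 9969 and 10121 CPM in input and 27400 and 26227 in meRIP (log2FC 1.42, SE 0.19, adjusted p 0.000743). *lncRNA:noe* had 2586 and 2748 CPM in input and 8747 and 7549 in meRIP (log2FC 1.61, SE 0.24, adjusted p 0.00143). Replicates agreed closely for both, the groups were far apart, and both calls held in all 16 alternatives. Other abundant long non-coding RNAs were not called. *lncRNA:Hsromega*, the heat shock RNA of nuclear speckles, had 1997 and 1991 CPM in input and 1816 and 1815 in meRIP (log2FC -0.14, SE 0.21, adjusted p 0.743). *lncRNA:roX1*, a subunit of the dosage compensation complex, had 1446 and 1438 CPM in input and 1135 and 1383 in meRIP (log2FC -0.21, SE 0.22, adjusted p 0.592). The class median of 1.14 came mostly from poorly counted genes, and the 33 well-counted members had a median of 0.14. Of the 8 higher genes 3 had at most 1 count in either input.

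The mRNAs of RNA-binding proteins were counted in a list put together after values were seen. Of 30 tested, 17 were higher and none lower, against 4.14% and 1.45% of all genes, and the median was 0.82. *pAbp*, the cytoplasmic poly(A)-binding protein, had 2785 and 2781 CPM in input and 6329 and 7835 in meRIP (log2FC 1.33, SE 0.22, adjusted p 0.00288). *shep* had 1369 and 1179 CPM in input and 2922 and 3524 in meRIP (log2FC 1.33, SE 0.22, adjusted p 0.00308), and *fne*, of the ELAV family, 1119 and 1054 against 2244 and 2648 (log2FC 1.16, SE 0.26, adjusted p 0.0186). *Pabp2*, *cpo*, *Rbp6*, *rin* and *Imp* were also higher. The list had a median adenine content of 34.2%, against 27.7% for all genes tested.

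Single mRNAs with the clearest recovery came from many processes. Chosen after their values were seen, *cib*, which binds actin, had 1139 and 899 CPM in input and 4372 and 3534 in meRIP (log2FC 1.97, SE 0.18, adjusted p 2.44e-05). *CNBP*, which binds RNA and single-stranded DNA, had 1224 and 1211 CPM in input and 3740 and 4071 in meRIP (log2FC 1.68, SE 0.14, adjusted p 1.42e-05). *Cam*, calmodulin, had 855 and 824 CPM in input and 2501 and 3144 in meRIP (log2FC 1.73, SE 0.26, adjusted p 0.00152). For these mRNAs every meRIP value was above every input value by more than the replicates differed. *E(spl)m4-BFM*, a Notch target, was among the called genes with the largest rise, at 14.6 and 22.8 CPM in input and 89.6 and 66.3 in meRIP (log2FC 2.12, SE 0.30, adjusted p 0.00120). The others by the same rule included *CG14341* (log2FC 2.94), *CG13994* (2.40), *hng2* (2.36), *mRpL48* (2.19), *rswl* (2.19) and *hpRNA:CR33940* (2.17). Each of these 6 lost its call in some alternatives, *mRpL48* in 11, *rswl* in 8, *CG13994* and *hpRNA:CR33940* in 5 each, *CG14341* in 4 and *hng2* in 3.

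Several groups of neural genes that were higher in meRIP of brains with *Mettl3* were mostly not recovered above input without it. Of 22 axon guidance genes, 1 was higher in null meRIP, *Lar*, against 4.14% of all genes, and the median was -0.12. Most exon bases of *Lar* overlap another gene (83.6%), and its call was lost in 8 of 15 alternatives. In wildtype brains, where 14.5% of all genes were higher and 5.79% lower in meRIP than in input, 16 of the 22 were higher, and in neuroblast-biased brains, where 17.5% were higher and 8.13% lower, 17 were higher. None of 32 Dpr and DIP surface proteins, which match synaptic partners, was higher in null brains (median -0.10), against 20 in wildtype and 16 in neuroblast-biased brains (medians 1.42 and 2.78). The difference itself was tested with the ratio of null brains minus that of wildtype brains, which uses the same null libraries again. This ratio was higher for 0.413% and lower for 5.22% of all genes, and lower for 15 of the 22 axon guidance and 15 of the 32 Dpr and DIP genes. Against neuroblast-biased brains it was higher for 0.242% and lower for 4.46% of all genes, and lower for 14 and 6 of them. Unadjusted, 1693 and 1835 genes had a p under 0.05 in these 2 tests. The counts against wildtype rested on wildtype input replicate 2: without it 1 gene in all was lower.

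Some neural mRNAs were recovered in part without *Mettl3*. Of 17 neuroblast factors, 5 were higher in null meRIP, against 13 in wildtype and 14 in neuroblast-biased brains, with a null median of 0.46 and medians of 1.23 and 1.29 in the others. Over all genes tested, the shares higher in these 3 genotypes were 4.14%, 14.5% and 17.5%. *Imp*, a temporal RNA-binding protein, had 402 and 382 CPM in null input and 784 and 880 in null meRIP (log2FC 1.08, SE 0.25, adjusted p 0.0239). *br*, an ecdysone-response transcription factor, had 2787 and 2596 CPM in input and 4615 and 4245 in meRIP (log2FC 0.72, SE 0.13, adjusted p 0.00605). Of 14 voltage-gated channels 3 were higher, among them *Sh*, a potassium channel, at 569 and 647 CPM in input and 1305 and 1387 in meRIP (log2FC 1.14, SE 0.22, adjusted p 0.00824), and *para*, the sodium channel, at 261 and 351 against 610 and 714 (log2FC 1.11, SE 0.25, adjusted p 0.0212). *nSyb* and *brp*, of the synaptic vesicle and its release site, were higher as well (log2FC 0.86 and 0.60). In all of these the 2 meRIP values exceeded the 2 inputs. The 7 transcripts that the study used as m6A examples or controls had null log2FC between -0.87 and 0.58 and none was called, whereas wildtype brains had 5 of them higher and neuroblast-biased brains all 7. These counts include *ase*, the non-target of the study. It was called higher in wildtype (log2FC 1.12, limma-voom adjusted p 0.00634) and neuroblast-biased brains (1.16, adjusted p 0.000759). The null ratio of *ase* was not called different from either (adjusted p 0.361 and 0.239). Among the 8 m6A pathway genes, *Mettl14*, the partner of Mettl3, was lower in null meRIP, with 44.6 and 42.9 CPM in input and 16.1 and 12.1 in meRIP (log2FC -1.56, SE 0.36, adjusted p 0.0212). It was also below 0 in wildtype (-0.88) and neuroblast-biased brains (-1.13), and its ratio was not called different from either. The 2 pathway genes with a called difference to wildtype were *fl(2)d* (null minus wildtype -2.18) and *Ythdc1* (-1.91), both also lower than in neuroblast-biased brains. In the alternatives, *Imp* and *para* lost their call 5 times each, *Mettl14* 4 times and *Sh* 3 times.

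**Figure D4:**
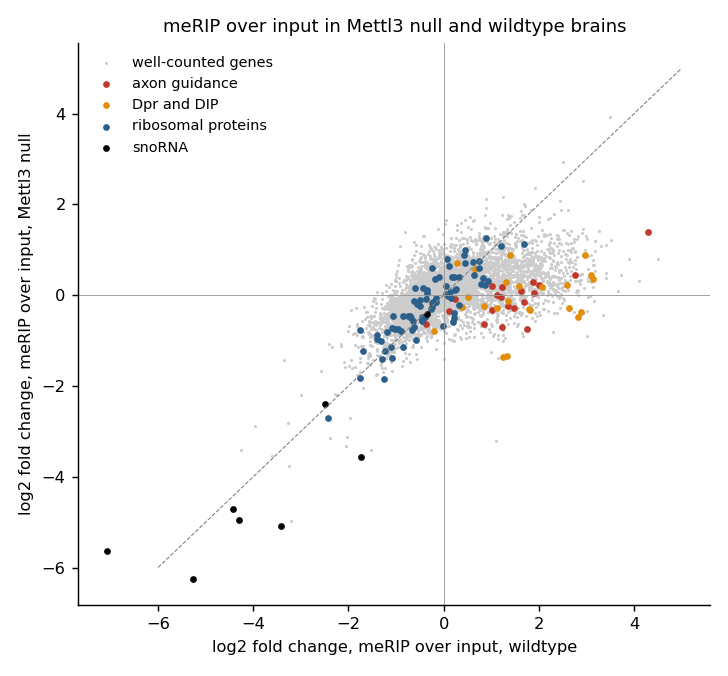
Log2FC of meRIP over input in *Mettl3* null brains (vertical axis) against wildtype brains (horizontal axis) for 4904 well-counted genes, with the line of equality dashed. Ribosomal proteins (blue) lie along the line, whereas axon guidance genes (red) and Dpr and DIP genes (orange) spread along the horizontal axis near a null value of 0, with null medians of -0.12 and -0.10 over all their tested members.

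Genes called in null brains mostly moved the same way elsewhere. Of the 411 higher genes, wildtype brains had 370 above 0 and neuroblast-biased brains 394, and 231 were called higher in both. Of the 144 lower genes, 142 and 140 were below 0 and 103 were called lower in both. Over the 4904 well-counted genes the null log2FC had a Spearman correlation of 0.59 with wildtype and 0.57 with neuroblast-biased brains, and the latter 2 had 0.84 with each other. No library enters 2 of these 3 ratios.

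Transcript length was examined as the number of exon bases per gene. Over all 9856 genes with a length, the null log2FC had a Spearman correlation of 0.00 with length, against 0.24 in wildtype and 0.16 in neuroblast-biased brains. The share of genes called higher nevertheless rose from 1.99% under 500 bases to 14.6% at 8000 bases or more, while the share called lower went from 4.20% to 0.837%, and the median level of the genes rose over the same bins from 1.49 to 283 CPM. Among well-counted protein-coding genes of 8000 bases or more the null median was 0.25, against 0.85 in wildtype and 0.87 in neuroblast-biased brains. The correlation with length in this set was 0.11, but 0.02 with meRIP replicate 1 and 0.23 with meRIP replicate 2, so that it depended on the library. At the short end, 40 well-counted genes had under 500 exon bases, and 13 of them were lower and 5 higher. Of the 18 among them that encode protein, 1 was lower and 3 were higher.

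**Figure D5:**
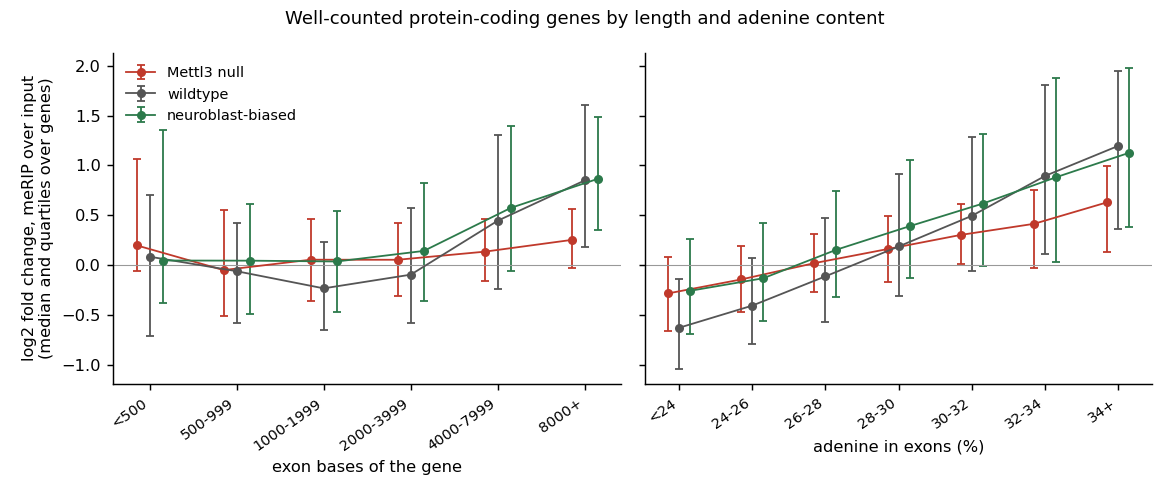
Median log2FC of meRIP over input, with quartiles over genes as bars, for well-counted protein-coding genes in bins of exon length (left) and of adenine content (right), in *Mettl3* null (red), wildtype (grey) and neuroblast-biased (green) brains. Null medians stay between -0.05 and 0.25 across length but go from -0.29 under 24% adenine to 0.63 at 34% or more.

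Base composition went with null recovery more than length did. Over 4808 well-counted protein-coding genes, the null log2FC had a Spearman correlation of 0.36 with the adenine content of the exons (0.29 and 0.46 with the 2 meRIP libraries taken alone). Under 24% adenine, 1.41% of the genes were higher and 7.04% lower, with a median of -0.29. At 34% adenine or more, 32.6% were higher and 0.870% lower, with a median of 0.63. The median level rose over the same bins from 44.0 to 146 CPM, and the null log2FC had a correlation of 0.23 with level. Thymine went the other way, with a correlation of -0.25 in null brains but of 0.02 for wildtype and -0.06 for neuroblast-biased brains, and 31 of 220 genes with 28% thymine or more were lower. The strength of the adenine correlation was 0.45 in wildtype and 0.33 in neuroblast-biased brains, so that it was not confined to null brains. The difference between genotypes was not tested.

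The adenine gradient was present within narrower sets of genes. In genes with a low share of non-coding exon bases the null median went from -0.17 in the third of genes lowest in adenine to 0.24 in the highest, and among genes with a high share from -0.02 to 0.42. Among the shortest genes it went from -0.13 to 0.28 and among the longest from -0.15 to 0.41. Level was not held fixed in these sets. Short motifs were counted per kb of exon on the transcribed strand. The null log2FC had correlations of 0.31 with AAAC, the core found at *Drosophila* m6A sites, 0.24 with AAAAAA and 0.14 with GAAGAA, and of -0.12 with GGAC, the core of the mammalian m6A site. AAAC and AAAAAA overlap with adenine content itself, and in wildtype brains the correlations were 0.45, 0.42, -0.01 and -0.30. Called genes differed in adenine and in length: the 411 higher genes had a median of 30.9% adenine and 3540 bases and the 144 lower genes 26.7% adenine and 1501 bases, against 27.7% and 2088 bases over all genes tested. Length showed almost no correlation with the null log2FC over all genes tested, and longer genes were better counted, as given above. The mitochondrial rRNAs and *Psi28S-3342* were exceptions to the adenine gradient, being rich in adenine and low in null meRIP. So were the 13 mitochondrial respiratory chain genes as a group, with a median of 32.3% adenine and a median log2FC of -1.58.

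Genes nearly absent from the null inputs were a separate case among the higher genes. Of the 411, 36 had at most 3 counts in both input libraries. Such genes can hardly be called lower and can pass the count filter through meRIP libraries, so their direction was set by selection. *Tm2*, a tropomyosin of muscle, had 1 and 2 counts in input and 71 and 34 in meRIP, at least 18.8-fold higher when 3 counts are assumed for each input library. In wildtype input *Tm2* had 4.42 and 4.75 CPM, near its null meRIP level of 4.18 and 4.28 CPM. *Cyp4g1*, a cytochrome P450 of oenocytes, had no count in either input and 33 and 15 in meRIP, at least 8.51-fold higher. Both lost their call in 10 alternatives. Of the 632 tested genes with no count in either input, 30 were called. The bounds cover counting error only, since reads without molecular identifiers are not independent molecules.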

How the data were processed

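The authors deposited raw counts per gene, 17807 genes in 12 libraries. By the methods of the study, Trimmomatic trimmed the reads, STAR aligned them to BDGP6 with its Ensembl genes, and featureCounts counted the meRIP reads. For input the methods name kallisto, although all input counts are whole numbers, so their counter is uncertain. The series' own description calls the input libraries a mock precipitation, whereas the methods describe RNA that was not precipitated. Strandedness and duplicate removal were not given in the sources used here, so reads of overlapping or near-identical genes can have been assigned to a neighbour. Replicates are described as biological replicate experiments.

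Genes passing edgeR's filterByExpr (minimum count 10, 9918 genes) were tested with limma-voom (limma 3.58.1, edgeR 4.0.16, R 4.3.3), with TMM factors and a mean for each of the 6 groups over all 12 libraries. Tests were two-sided, with Benjamini-Hochberg adjustment over all genes tested. The unpaired fit was kept because, over all genes tested, deviations of same-numbered meRIP and input libraries did not correlate over 0.1 in any genotype. Such a correlation cannot show that the libraries were unpaired. Exon lengths, base contents and symbols came from Ensembl release 115 (17710 of 17807 identifiers matched), and the fit was tested on simulated data. Members, lists and named genes were chosen with earlier results of these data known. Named were the m6A and non-coding RNA lists, the 10 largest rises and falls with a mean of at least 10 CPM and no overlap between libraries, the extreme members of each list, and genes said to be chosen after their values were seen. Members of a list called in either direction are also named in places, chosen after their values were seen. Results were recomputed with DESeq2 1.42.0, edgeR's quasi-likelihood test, quality weights, other scalings and filters, the null libraries alone, a replicate block and leaving out each library.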

Additional observations from a re-analysis of the deposited data

Results flagged for a closer look

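The meRIP to input ratio of these RNAs differed between null brains and another genotype in the test of the difference itself (limma-voom, adjusted p over all 9918 genes). They were taken from the RNAs described in the report and those named for a difference in this ratio. Null minus wildtype was -1.82 on the log2 scale (SE 0.40, adjusted p 0.0135) for *snoRNA:Psi28S-291*, which was below 0 in every genotype but furthest below in null brains. It was -4.30 (SE 0.84, adjusted p 0.00709) for *28SrRNA-Psi:CR45851*, a pseudogene of the rDNA array that was above 0 in wildtype. It was -2.14 for *dpr20*, -4.49 for *lncRNA:CR46348*, -6.24 for *lncRNA:CR45758* and -4.11 for *CG43850*. It was also below 0 for *Lar* (-2.89), *Sh* (-1.53), *Imp* (-1.30), *fne* (-1.41) and *br* (-0.81). The difference went the other way for *XRCC1* (2.19), *Rbm13* (1.80), *Hsp27* (1.01) and FBgn0036660 (1.87). Null minus neuroblast-biased was -5.56 for *lncRNA:CR46348* and -7.52 for *lncRNA:CR45758*, -2.52 for *Lar*, -0.81 for *br* and -1.08 for *lncRNA:roX1*. It was above 0 for *XRCC1* (1.48), FBgn0036660 (1.87), *CG17508* (1.81) and *mt:ND5* (2.35, SE 0.61, adjusted p 0.0375), the last of which was lower in meRIP in each genotype but least so outside neuroblast-biased brains. *dpr20* (adjusted p 0.00903) and *CG43850* (adjusted p 0.00455) also differed from neuroblast-biased brains, but had no count in either input there, so that no size is given. The causes were not tested.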

How the results depend on the processing

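In Mettl3 null meRIP over input, higher genes numbered 411, and edgeR's quasi-likelihood test gave 213, DESeq2 643, quality weights 197, library size alone 157, a required log2FC of at least 1 gave 221 and the null libraries alone 240, leaving out a null library 26 to 159 and leaving out a library of another genotype 183 to 556. Against 144 lower genes, edgeR gave 94, DESeq2 277, library size alone 326, genes of at least 20 CPM 312, the null libraries alone 67, leaving out a null library 25 to 119 and leaving out one of another genotype 76 to 209. For the ratio of null minus wildtype, the 41 higher genes became 26 with edgeR, 118 with DESeq2, 238 with library size alone, 65 with upper-quartile factors, 75 with no filter, 0 to 35 without a library of either genotype and 40 to 73 without a neuroblast-biased library, and the 518 lower genes 273 with library size alone, 1 to 391 without a library of either genotype and 562 to 754 without a neuroblast-biased library. For null minus neuroblast-biased, the 24 higher genes became 120 with DESeq2, 1 with quality weights, 73 with library size alone, 87 with no filter, 3 to 353 without a library of either genotype and 10 to 11 without a wildtype library, and the 442 lower genes 750, 177 and 200 with the first 3 of these 62 to 831 without a library of either genotype and 215 to 340 without a wildtype library. The correlation with length became 0.11 over genes of at least 20 CPM and -0.039 to 0.081 without a null library. The median of the snoRNAs minus that of all genes, -1.57, became -0.027 with no filter and -1.95 to -0.89 without a null library. Of all higher and lower calls in null brains, 74.1% were higher, against 32.5% with library size alone, 57.6% with quality weights and 54.0% over genes of at least 20 CPM. The median of all genes moved by -0.14 with edgeR, -0.15 with DESeq2, -0.29 with library size alone and -0.11 over genes of at least 20 CPM.

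The replicate block (libraries of a genotype with the same number sharing a block) gave 423 higher and 126 lower genes. The study split the brain RNA of each genotype between input and meRIP, but the labels do not state which libraries share RNA. Deviations of same-numbered libraries correlated at 0.05, 0.00 and 0.08 in null, wildtype and neuroblast-biased brains over all genes tested. Over genes of at least 20 CPM in the genotype the values were 0.09, -0.05 and 0.15. The numbers were therefore not read as pairs in the main fit. The named genes kept their side of the threshold in 2066 of their values under an alternative, passed it anew in 52 and lost it in 195, and none reversed. Each group had 2 libraries, so a called difference rests on 2 against 2 and on the spread pooled over 6 groups.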
